A study of Mus musculus with 16 samples.

Results

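The levels of 6 genes that mark spinal motor neurons and other cholinergic neurons were examined in the spinal cord RNA of 16 mice. The genes were chosen by name, as Chat, Slc18a3, Slc5a7, Ache, Isl1 and Mnx1, and make up 6 of the 24411 gene symbols in the deposited tables. All 6 were among the 16091 genes tested, which had a mean TPM (transcript abundance scaled by the authors for gene length and library size) above 1 in at least 1 of the 3 conditions. The mice were female C57BL/6J. In 14 of them the cord was compressed from the side with forceps closing to a 0.25 mm gap at T8-9, at 12 weeks of age. From 2 weeks after injury, for 4 weeks, 7 of these mice had daily intraperitoneal atorvastatin at 10 mg/kg in a mixture of DMSO, PEG 400, Tween 80 and saline (SCI + Atorvastatin), and 7 had that mixture alone (SCI + Vehicle). A piece of cord 5 mm long around the injury was taken 6 weeks after injury. The Uninjured Control group is 2 mice with neither surgery nor injections, and by the study's methods they were younger at isolation than the injured mice, so injury cannot be told apart from surgery, injection and age in the comparisons with them. The labels call the mice of a group biological replicates, and p-values measure the spread between these mice.

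The first 4 genes serve cholinergic transmission. Chat makes acetylcholine, Slc18a3 (the vesicular transporter VAChT) loads it into synaptic vesicles, Ache breaks it down in the synaptic cleft, and Slc5a7 (the transporter CHT1) takes the released choline back into the terminal. Isl1 and Mnx1 are homeodomain transcription factors that give motor neurons their identity in the embryo and persist at lower levels in adult motor neurons. In the thoracic cord cholinergic neurons include the somatic motor neurons of the ventral horn, the preganglionic sympathetic neurons of the lateral column and small groups of interneurons. Isl1 is also expressed by sensory neurons of the dorsal root ganglia.

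Chat and Slc18a3 share one locus, and its 2 start regions are printed here because these were the members that passed a test. On GRCm38 (GENCODE M21), Chat covers chr14:32408203-32465989 on the minus strand. Slc18a3, at chr14:32462438-32464850 on the same strand, lies whole within intron 1 of transcript Chat-201, which runs from base 32460914 to base 32465806 and is 4893 bases long. None of the 8 annotated Chat transcripts has an exonic base over Slc18a3, and the RefSeq starts of the 2 genes are 1059 bases apart. The stretches below lie upstream of each RefSeq start, written 5′ to 3′ on the strand of the genes, with bases of annotated exons left out. They are 170 bases at chr14:32465990-32466159 for Chat and 250 bases at chr14:32464851-32465100 for Slc18a3 (RefSeq, GRCm38.p6). Capitals mark matches to the letters searched.
Chat: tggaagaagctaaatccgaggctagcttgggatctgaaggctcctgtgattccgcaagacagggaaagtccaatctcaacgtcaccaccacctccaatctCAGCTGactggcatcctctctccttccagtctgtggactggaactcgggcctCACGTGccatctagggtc
Slc18a3: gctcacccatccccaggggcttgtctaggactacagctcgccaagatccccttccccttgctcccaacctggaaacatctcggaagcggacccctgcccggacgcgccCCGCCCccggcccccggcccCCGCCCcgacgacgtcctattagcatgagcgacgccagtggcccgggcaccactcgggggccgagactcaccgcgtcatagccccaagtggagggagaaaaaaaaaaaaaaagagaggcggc

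Both strands of the 250 bases upstream of each start were searched for 5 motifs, and all 6 genes were matched to the RefSeq table. The E-box CAGCTG was found for Chat and Isl1, against 13.0% of the 32851 promoters in the table. A second E-box, CACGTG, was found for Chat and Ache, against 6.02% of all promoters. The GC box GGGCGG or its complement CCGCCC was found for Slc18a3, Ache and Mnx1, against 32.7%. The homeodomain core TAATTG was found for Mnx1 (7.17% of all promoters) and TAATTA for no member (4.84%), while none of these letters was found for Slc5a7. The start region of Chat held 54.8% G and C, close to the 52.4% median of all promoters, and that of Slc18a3 held 66%. A match of letters is a description of the sequence and not a site of binding.

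Libraries held 14823292 to 25579826 counts. A count of 0 allows up to 3 counts, which came to 0.117 to 0.205 CPM (counts scaled to library size with TMM normalization, the scale used for single mice), and this limit covers counting error only. The 2 Uninjured Control libraries stood apart from the rest. They held counts for 12732 and 12356 genes, against 16399 to 19338 in the SCI libraries, and 2131 tested genes (13.2%) had no counts in 1 control and at least 50 in the other. The median gene differed between the controls by 0.64 on the log2(CPM + 1) scale, against 0.19 to 0.38 between 2 SCI mice of a group. Liver markers (Alb, Apoa1, Apoa2, Fgb and Cyp2e1) summed to 3882 and 633 CPM in the controls and to at most 5.99 CPM in any SCI mouse. The 6 genes are therefore given against each control alone as well, as are some other genes, by effect size only. The part of these differences in the results was not tested.

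Against the mean of the 2 Uninjured Control mice, both genes of the shared locus were lower in both SCI groups. Chat was less firmly so than Slc18a3, since some SCI + Vehicle mice lay between the controls. Chat read 23.0 CPM in control 1 and 65.4 CPM in control 2. Among the SCI + Vehicle mice its lowest, median and highest values were 14.8, 19.9 and 28.8 CPM, and among the SCI + Atorvastatin mice 16.1, 17.0 and 19.5 CPM. Every SCI + Atorvastatin mouse was below both controls, whereas only 4 of 7 SCI + Vehicle mice were, and the other 3 lay between the controls. The log2 fold change of Chat was -1.34 (SE 0.294, adjusted p = 0.00501) in SCI + Atorvastatin, which passed the test, and -1.04 (SE 0.369, adjusted p = 0.0568) in SCI + Vehicle, which did not. The test was edgeR's quasi-likelihood test with Benjamini-Hochberg adjustment over all 16091 genes, and a gene passed at an adjusted p below 0.05 and at least a 1.25-fold change. Both comparisons use the same 2 controls. With DESeq2, which the study used, Chat passed in SCI + Vehicle as well. A pass in 1 SCI group alone is not a test of the difference between the treatments.

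Slc18a3 gave the firmest difference of the 6 genes. It read 77.5 CPM in control 1 and 40.8 CPM in control 2. The SCI + Vehicle mice spanned 15.8 to 30.2 CPM around a median of 21.7 CPM. The SCI + Atorvastatin mice spanned 12.3 to 25.7 CPM around a median of 20.8 CPM. All 14 injured mice were thus below both controls. Slc18a3 fell by 1.44 on the log2 scale in SCI + Vehicle (SE 0.291, adjusted p = 0.00427 in edgeR), with a mean of 21.9 ± 5.44 CPM (SD, n = 7). In SCI + Atorvastatin it fell by 1.57 (SE 0.301, adjusted p = 0.00236), with a mean of 19.8 ± 5.04 CPM (SD, n = 7). In bulk tissue, fewer cholinergic cells in the piece of cord and less of this RNA per cell cannot be told apart.

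**Figure D1:**
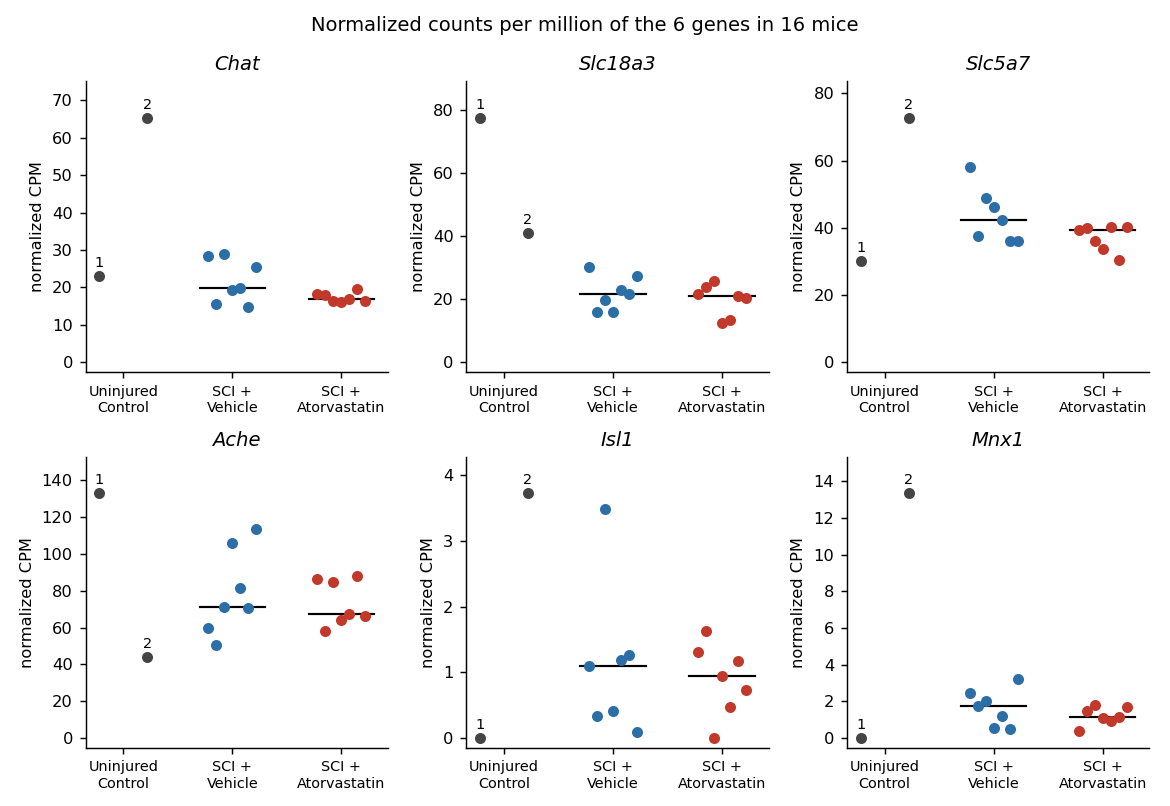
Normalized CPM (vertical axes, each starting near 0) of each gene in every mouse, by group; each point is 1 mouse, lines mark the median of the SCI groups, and the Uninjured Control points carry their replicate number. Only for Slc18a3 are both controls (40.8 and 77.5 CPM) above all 14 SCI mice, and the 2 controls swap their order from gene to gene.

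The 2 controls differed more in how the counts of the locus were divided than in their sum. Slc18a3 had 3.36 counts for each Chat count in control 1 (1540 against 458) and 0.625 in control 2 (900 against 1440). In the 14 SCI mice this ratio ran from 0.682 to 1.56 with a median of 1.07, so the controls lay on either side of every injured mouse. Added together, Chat and Slc18a3 came to 100.5 CPM in control 1 and 106.2 CPM in control 2. The same sum was 31.3 to 58.6 CPM with a median of 42.7 CPM in SCI + Vehicle. It was 28.3 to 42.2 CPM with a median of 39.8 CPM in SCI + Atorvastatin. Both controls were thus above all 14 injured mice in this sum, while the 2 SCI groups overlapped. The sum was formed after the values of both genes were seen and was not tested. As the genes share no annotated exon, reads in exons can be assigned to one of them, although unspliced Chat RNA also crosses Slc18a3, and how such reads were counted is not given in the sources used here.

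**Figure D2:**
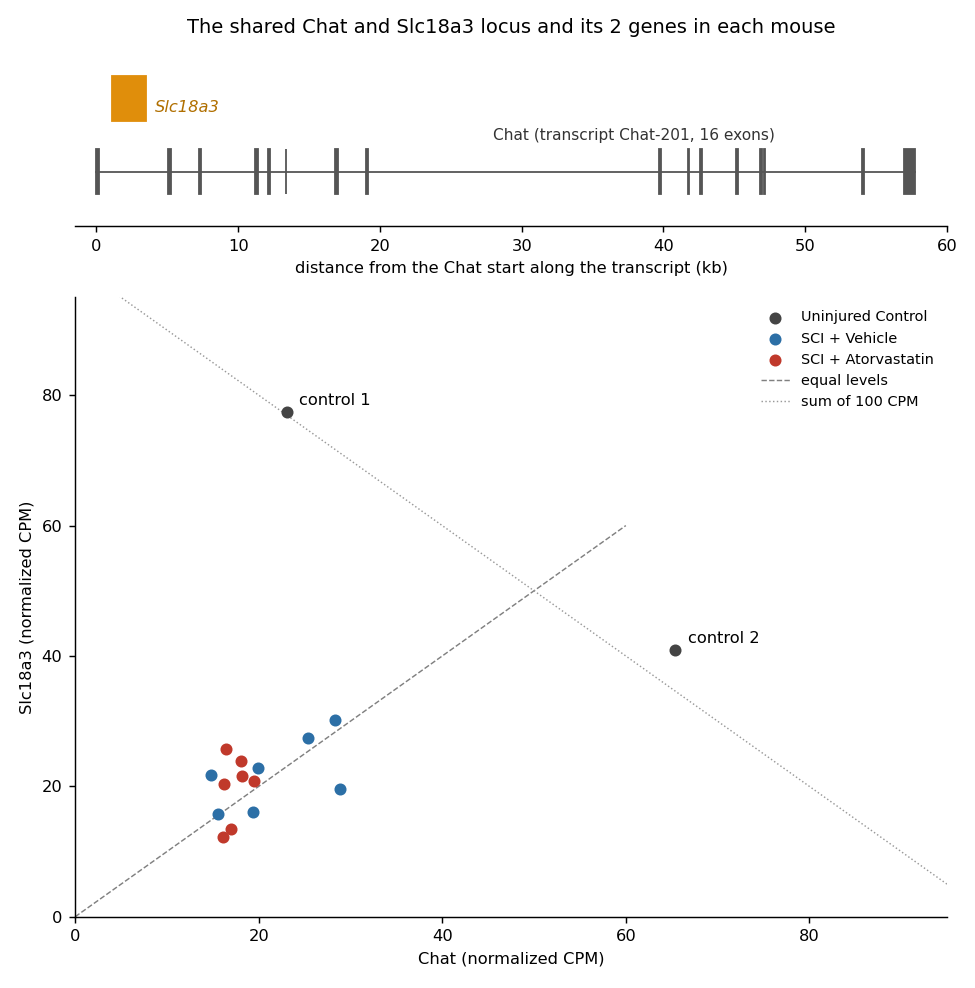
Top, exons of Chat-201 (grey) and Slc18a3 (orange) by distance in kb from the Chat start; bottom, normalized CPM of Slc18a3 against Chat, 1 point per mouse, with lines of equal levels and of a sum of 100 CPM. The controls sit far apart but both near the line of that sum, at 100.5 and 106.2 CPM, and all SCI mice are at or below 58.6 CPM.

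The choline transporter and the esterase showed no change that passed the test. Slc5a7 read 30.03 CPM in control 1 and 72.8 CPM in control 2, and all 14 injured mice fell between these values, at 36.0 to 58.0 CPM (median 42.3 CPM) in SCI + Vehicle and 30.3 to 40.3 CPM (median 39.4 CPM) in SCI + Atorvastatin. Its log2 fold change was -0.25 (95% interval -0.90 to 0.40, adjusted p = 0.561 in edgeR) in SCI + Vehicle. In SCI + Atorvastatin it was -0.46 (95% interval -1.04 to 0.13, adjusted p = 0.198). Ache ran the other way between the controls, with 133 CPM in control 1 and 44.1 CPM in control 2, and again every injured mouse lay between them. The SCI + Vehicle mice held 50.5 to 114 CPM of Ache (median 71.0 CPM), and the SCI + Atorvastatin mice held 58.3 to 88.2 CPM (median 67.4 CPM). Ache gave a log2 fold change of -0.18 (95% interval -1.02 to 0.67, adjusted p = 0.771) for SCI + Vehicle and of -0.26 (95% interval -0.98 to 0.47, adjusted p = 0.571) for SCI + Atorvastatin.

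Isl1 and Mnx1 had low counts in the injured mice, and their control values could not be averaged in a useful way. Mnx1 had 0 counts in control 1 and 294 counts (13.3 CPM) in control 2, a difference of at least 88.4-fold against the 3 counts that a 0 allows. In the injured mice it was counted in all 14, at 0.503 to 3.22 CPM (median 1.73 CPM) in SCI + Vehicle and 0.370 to 1.79 CPM (median 1.17 CPM) in SCI + Atorvastatin. Every SCI mouse therefore lay between the 2 controls. The log2 fold changes of Mnx1, -2.01 (SE 1.25, adjusted p = 0.255 in edgeR) and -2.44 (SE 1.16, adjusted p = 0.122), had the largest errors beside those of Isl1. Isl1 had 0 counts in control 1 and 82 counts (3.72 CPM) in control 2, at least 24.7-fold apart. The SCI + Vehicle mice had 0.0882 to 3.49 CPM of Isl1 (median 1.09 CPM), and the SCI + Atorvastatin mice 0 to 1.63 CPM (median 0.947 CPM). It gave log2 fold changes of -0.74 (SE 1.46, adjusted p = 0.747) for SCI + Vehicle and -1.04 (SE 1.41, adjusted p = 0.597) for SCI + Atorvastatin.

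The highest Isl1 value among the injured mice, 3.49 CPM (81 counts), came from SCI + Vehicle replicate 3. The same mouse held the most RNA of dorsal root ganglion markers (Prdm12, Avil, Mrgprd, Scn10a, Scn11a, Trpv1 and P2rx3), which summed to 57.9 CPM there and to 1.39 to 11.5 CPM in the other SCI mice. All 7 of these markers had 0 counts in both controls, including control 2, where Isl1 was at its highest. Skeletal muscle markers (Ckm, Acta1, Myh4, Mylpf, Actn3, Tnnt3, Chrna1, Chrnd and Chrne) summed to 332 CPM in SCI + Vehicle replicate 3, to 1421 CPM in SCI + Atorvastatin replicate 2, and to at most 117 CPM in the other mice. Without SCI + Vehicle replicate 3, the log2 fold change of Isl1 in SCI + Vehicle against the controls was -1.36. The part of attached ganglion tissue in the Isl1 values was not tested.

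Counted together, 1 of the 6 genes (Slc18a3) passed as lower in SCI + Vehicle against Uninjured Control, where 9.55% of all tested genes passed as lower and 29.4% in either direction. In SCI + Atorvastatin against Uninjured Control 2 of the 6 (Chat and Slc18a3) passed as lower, where 14% of all tested genes did and 38.9% passed in either direction. Of 6 genes these are small counts, all by edgeR, and no member passed as higher. All 6 log2 fold changes were negative in both comparisons. Their medians were -0.89 and -1.19, beside 0.17 and 0.21 for all genes tested. Non-overlap with both controls on the lower side was seen for 1 member in SCI + Vehicle (10.7% of all genes) and for 2 in SCI + Atorvastatin (14.2%).

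**Figure D3:**
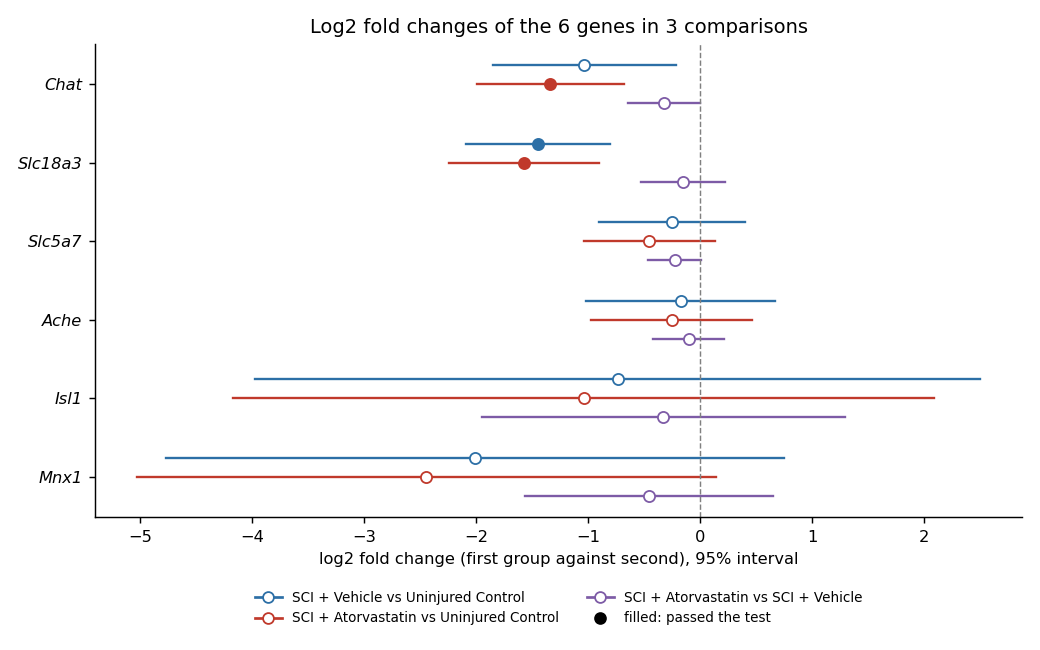
Log2 fold changes (horizontal axis) of the 6 genes with 95% intervals in the 3 comparisons, from edgeR; filled points passed the test. Slc18a3 passed against the controls in both SCI groups and Chat in SCI + Atorvastatin; the intervals of Isl1 and Mnx1 against the controls span several log2 units.

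The choice of control decided the direction for Slc5a7 and Ache and the size for Chat. Against control 1 alone, Chat had a log2 fold change of -0.10 for SCI + Vehicle and -0.41 for SCI + Atorvastatin. Against control 2 alone it was -1.60 and -1.90. Slc5a7 came to 0.52 and 0.31 against control 1 alone and to -0.75 and -0.96 against control 2 alone. For Ache the order was opposite, with -0.76 and -0.85 against control 1 alone and 0.83 and 0.75 against control 2 alone. Slc18a3 was lower against each control in both SCI groups, at -1.83 and -1.97 against control 1 and -0.91 and -1.04 against control 2. Mnx1 was lower against control 2 alone and higher against control 1 alone, where it had 0 counts, in both SCI groups. With 1 control left, that mouse is assumed to vary as the injured mice do, so only effect sizes are given here.

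**Figure D4:**
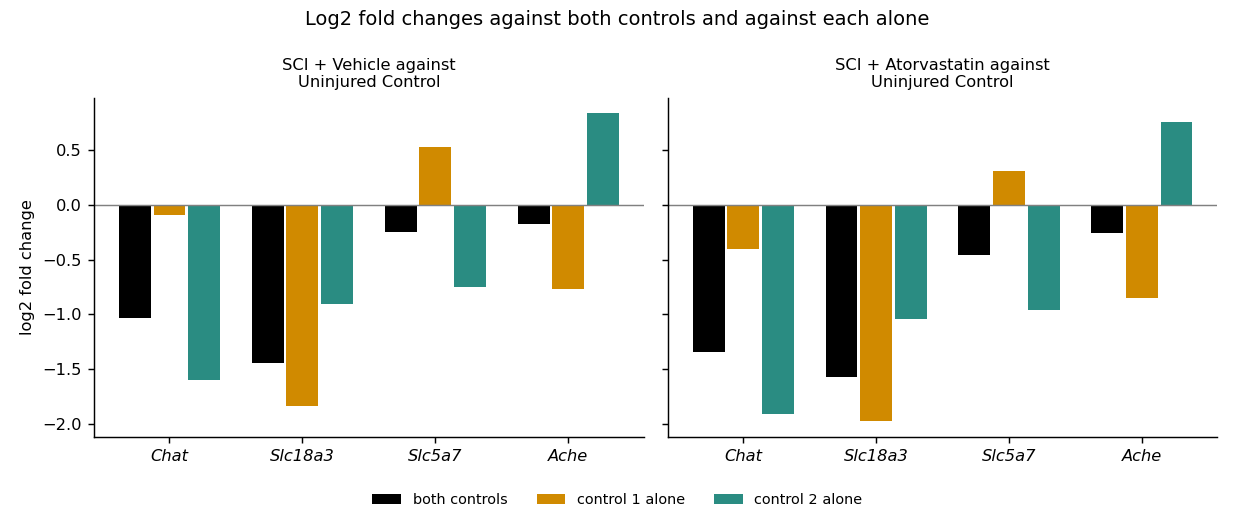
Log2 fold changes (vertical axis) of Chat, Slc18a3, Slc5a7 and Ache in each SCI group against both controls and against each control alone. The bars of Slc18a3 stay below 0 throughout (-0.91 to -1.97), while those of Slc5a7 and Ache change sign with the control used; Isl1 and Mnx1, with 0 counts in control 1, are not drawn.

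Between the treatments, no member passed an unadjusted p below 0.001 with a 1.25-fold change, which 0.106% of all tested genes (17) did. These are the study's limits, which it applied to genes that had already passed against the controls. Here they were applied to all tested genes. No gene of the 16091 had an adjusted p below 0.05 in edgeR, and 1132 genes (7.03%) had an unadjusted p below 0.05. Chat was the member with the smallest p. All 7 SCI + Atorvastatin mice (16.1 to 19.5 CPM) were below the SCI + Vehicle median of 19.9 CPM, but the groups overlapped, since the lowest SCI + Vehicle mouse had 14.8 CPM. The log2 fold change of Chat was -0.33 (95% interval -0.64 to -0.01, unadjusted p = 0.0459, adjusted p = 0.706 in edgeR). Slc5a7 showed a similar arrangement, with 7 of 7 SCI + Atorvastatin mice below the SCI + Vehicle median and a log2 fold change of -0.23 (95% interval -0.47 to 0.01, unadjusted p = 0.0571, adjusted p = 0.723). For Slc18a3 the difference was -0.15 (95% interval -0.53 to 0.22, adjusted p = 0.907) and for Ache -0.10 (95% interval -0.42 to 0.22, adjusted p = 0.928). Isl1 and Mnx1 differed by -0.33 (95% interval -1.95 to 1.29) and -0.46 (95% interval -1.56 to 0.65), which leaves room for changes of several fold. All 6 values were below 0, as were 50.3% of all tested genes, and their median was -0.28 beside -0.0014 for all genes.

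The spread of Chat was larger in SCI + Vehicle than in SCI + Atorvastatin. Its standard deviation on the log2(CPM + 1) scale was 0.0977 in SCI + Atorvastatin and 0.376 in SCI + Vehicle, a ratio of 3.85, and the high SCI + Vehicle values came from replicates 1, 3 and 7 (28.4, 28.8 and 25.4 CPM). Among the other members the ratio was 1.44 to 1.74 for Slc5a7, Ache, Isl1 and Mnx1, and 0.885 for Slc18a3. Over 14999 genes with a mean of at least 1 CPM in the injured mice, the median ratio was 1.23 and 67.2% of genes spread more in SCI + Vehicle. These ratios are descriptions and were not tested.

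Per unit of gene length, Ache was the most abundant member in both SCI groups. Mean TPM of Ache was 94.6 ± 17.6 (SD, n = 7) in SCI + Atorvastatin and 98.1 ± 27.9 (SD, n = 7) in SCI + Vehicle, and no injured mouse had less Ache than any injured mouse had of another member. Slc18a3 followed with 22.5 ± 6.16 and 24.0 ± 6.03 TPM, then Slc5a7 with 17.8 ± 2.04 and 21.2 ± 4.39 TPM, and Chat with 13.7 ± 1.73 and 16.8 ± 5.88 TPM (SD, n = 7 each). The ranges of neighbours among these 3 overlapped in each SCI group, and their order was not tested. Mnx1 (1.89 ± 0.881 and 2.59 ± 1.47 TPM) and Isl1 (0.61 ± 0.519 and 1.01 ± 0.953 TPM) came last, overlapped each other, and stayed below the lowest Chat value. In the controls Ache read 134.9 and 44.5 TPM, and Slc18a3, at 72.1 and 45.1 TPM, was below it in control 1 and above it in control 2. Chat (16.9 and 55.7 TPM) was above Slc5a7 (11.7 and 31.3 TPM) in each control, and above Ache in control 2, and Mnx1 in control 2, at 27.1 TPM, was nearer to these genes than in any injured mouse, whose highest value was 5.06 TPM. Isl1 passed the filter on TPM through the Uninjured Control and SCI + Vehicle means, and 1 SCI + Atorvastatin mouse with 12 counts of Isl1 was listed at 0 TPM.

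Within the injured groups the members varied together only loosely from mouse to mouse. Deviations from the group mean of log2(CPM + 1) were correlated over the 14 mice for all 15 pairs, with permutation tests within groups. The highest Pearson value was that of Chat with Mnx1 (Pearson's r = 0.53, permutation p = 0.131, adjusted p = 0.565; Spearman's rho = 0.56, permutation p = 0.0937, adjusted p = 0.468). Without the 2 mice farthest from the median of Chat, SCI + Vehicle replicates 1 and 3, this r was 0.44, and within the groups it was -0.34 in SCI + Atorvastatin and 0.70 in SCI + Vehicle. Chat with Slc5a7 followed (r = 0.50, permutation p = 0.151, adjusted p = 0.565; rho = 0.38, permutation p = 0.239, adjusted p = 0.718), and fell to r = 0.14 without the same 2 mice. The neighbours Chat and Slc18a3 had r = 0.43 (permutation p = 0.119, adjusted p = 0.565) and rho = 0.54 (permutation p = 0.0488, adjusted p = 0.366), with r = 0.43 without those mice. The highest rho was that of Slc18a3 with Mnx1 (rho = 0.57, permutation p = 0.04, adjusted p = 0.366, with r = 0.43). With TPM in place of CPM, Chat and Slc18a3 had r = 0.18 and rho = 0.17 (permutation p = 0.554), and Chat and Mnx1 had r = 0.53 and rho = 0.65. No pair passed an adjusted p of 0.05 by either measure.

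Genes elsewhere in the genome followed single members more closely than the members followed each other, as the highest of 14999 correlations will. For Chat they included Rspo2 (r = 0.91) and Nrg1 (r = 0.85). Ache was most like Dctn2, Mapre3 and Fam53b (r = 0.93 for each), and Isl1 was most like Mccc2 (r = 0.92), Rictor (r = 0.86) and Acpp (r = 0.85). For Slc18a3 the leading genes were Cdkal1, Ccl3 and Gpkow (r = 0.80 to 0.82). Slc5a7 was led by 4933430I17Rik, Dhh and Vps4b (r = 0.84 to 0.88), and Mnx1 by Mocs2, Emb and Thoc7 (r = 0.86 to 0.87). The values are descriptions over 14 mice without a test.

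General neuron genes were lower in the injured cord as well. Of 12 such genes, 7 passed as lower in SCI + Vehicle and 10 in SCI + Atorvastatin, against 9.55% and 14% of all genes, and none passed as higher. Eno2, a glycolytic enzyme of neurons, fell by 0.79 and 0.92 on the log2 scale, and Snap25, a component of the vesicle fusion machinery, likewise fell by 0.79 and 0.92. The neurofilament gene Nefl fell by 0.74 and 0.89. The list had a median of -0.68 for SCI + Vehicle and -0.84 for SCI + Atorvastatin. Against control 2 alone and control 1 alone, the list median was -0.65 and -0.66 in SCI + Vehicle, and -0.83 and -0.81 in SCI + Atorvastatin. Taken per mouse, the mean of these 12 genes was 9.07 and 9.12 on the log2(CPM + 1) scale in the controls and 8.21 to 8.96 in the injured mice.

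Relative to that neuronal mean, the controls and the injured mice overlapped or the controls lay on both sides of them. The difference from the mean for Slc18a3 was -2.77 and -3.73 in controls 1 and 2 and -4.60 to -3.40 in the injured mice, so control 2 fell inside the injured range. For Chat it was -4.48 and -3.06 in the controls, 1 below and 1 above the injured range of -4.40 to -3.49. The 2 remaining cholinergic genes had 1 control inside the injured range and 1 below it. For Slc5a7 the controls gave -4.11 and -2.91 and the injured mice -3.75 to -2.48. For Ache the controls gave -2.002 and -3.62 and the injured mice -2.60 to -1.80. These are log2(CPM + 1) differences within a mouse and were not tested.

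Other genes of motor neurons gave a mixed picture. Of 21 listed genes 20 were tested, and Lhx3, the partner of Isl1 in the embryonic motor neuron complex, had too low a TPM. In SCI + Vehicle 2 passed as lower and 3 as higher, and in SCI + Atorvastatin 4 passed as lower and 1 as higher, where 9.55% and 14% of all tested genes passed as lower and 19.8% and 24.9% as higher. For SCI + Vehicle this list had a median log2 fold change of 0.025 against control 2 alone and -0.31 against control 1 alone. For SCI + Atorvastatin these medians came to -0.048 and -0.57. Prph, an intermediate filament of motor and autonomic neurons, read 106.3 and 105.5 CPM in the controls, 54.9 ± 11.8 CPM (SD, n = 7) in SCI + Vehicle and 44.2 ± 4.59 CPM (SD, n = 7) in SCI + Atorvastatin. It fell by 0.96 (adjusted p = 0.0061 in edgeR) and 1.25 (adjusted p = 7.08e-05) on the log2 scale. The heavy neurofilament gene Nefh fell by 0.75 (adjusted p = 0.0303 in edgeR) and 1.00 (adjusted p = 0.000239). Its log2 fold change in SCI + Vehicle was -0.59 against control 1 alone and -0.89 against control 2 alone. Chodl, a marker of fast motor neurons, and Ret, a receptor for GDNF family factors, passed as lower in SCI + Atorvastatin only, which is not a test of the difference between the treatments. In SCI + Atorvastatin the log2 fold change of Chodl was -0.63 against control 1 alone and -1.35 against control 2 alone. That of Ret was -1.15 and -0.09. Isl2, the close relative of Isl1, had 0 counts in both controls and 1.59 to 4.21 CPM in SCI + Vehicle, a mean at least 16.5-fold higher than the 3 counts that a 0 allows in 1 control library. In SCI + Atorvastatin Isl2 ranged from 0 to 2.36 CPM and did not pass the test. Uts2b also had 0 counts in both controls and was at least 7.41-fold higher in SCI + Vehicle and 3.09-fold higher in SCI + Atorvastatin. Its counts were low, with single mice down to 0.0841 CPM in SCI + Vehicle and 0.285 CPM in SCI + Atorvastatin. Calcb, with 14 and 0 counts in the controls, passed as higher in SCI + Vehicle. Between the treatments Stk32a, a kinase gene of the same list named here after its values were seen, passed as lower in SCI + Atorvastatin (log2 fold change -0.37, unadjusted p = 0.000931, adjusted p = 0.68 in edgeR). It had not passed against the controls (adjusted p = 0.595 in SCI + Vehicle and 0.73 in SCI + Atorvastatin). The study applied its limit between the treatments to genes that had passed there.

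The genes that supply choline and acetyl groups moved in both directions. Slc44a2, a choline transporter of the plasma membrane and mitochondria, read 7.14 and 10.6 CPM in the controls and 57.9 ± 12.2 CPM (SD, n = 7) in SCI + Vehicle. It rose by 2.69 (adjusted p = 0.000213 in edgeR) in SCI + Vehicle and by 2.73 (adjusted p = 2.59e-05) in SCI + Atorvastatin. Chka, a choline kinase that draws choline into phospholipid synthesis, rose by 0.75 and 0.89. In SCI + Vehicle its log2 fold change was 0.88 against control 1 alone and 0.64 against control 2 alone. Acly, which makes acetyl-CoA, fell by 0.68 (adjusted p = 0.0021) and 0.69 (adjusted p = 0.000518). Colq, the collagen tail that anchors acetylcholinesterase at synapses, had 0 counts in both controls and was at least 10.2-fold higher in SCI + Vehicle and 19.4-fold higher in SCI + Atorvastatin. Altogether 3 of the 8 genes passed as higher and 1 as lower in each SCI group, beside 19.8% and 24.9% of all tested genes higher and 9.55% and 14% lower. The list median was 0.84 and 0.95 over all 8 genes. It was 0.75 and 0.89 with Colq at its lower bound and without the choline kinase gene Chkb, which had a mean of 26.8 TPM but at most 8 counts in any mouse, so that its counts do not measure it.

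Among the genes of acetylcholine reception, 11 of 15 were tested. Of these, 4 passed as higher in each SCI group, while 1 passed as lower in SCI + Vehicle and 2 in SCI + Atorvastatin. Of all tested genes 19.8% (SCI + Vehicle) and 24.9% (SCI + Atorvastatin) passed as higher, and 9.55% and 14% as lower. Chrm4 and Chrm5, which encode muscarinic receptors, and Chrna2 and Chrna3, which encode nicotinic subunits, passed as higher in both SCI groups, and all 4 had 0 counts in both controls. Their means in SCI + Vehicle were 1.91 to 3.23 CPM, at least 12.7-fold to 21.4-fold above the limit that a 0 allows. In SCI + Atorvastatin the means were 2.12 to 2.98 CPM, at least 14.1-fold to 19.7-fold above that limit. As stated, counts for fewer genes were found in the control libraries, and the part of that difference in these 4 results was not tested. Lynx1, a membrane-tethered modulator of nicotinic receptors, read 507 and 295 CPM in the controls and 213 ± 31.2 CPM (SD, n = 7) in SCI + Vehicle. It fell by 0.93 (adjusted p = 0.00508 in edgeR) and 1.08 (adjusted p = 0.000537). In SCI + Vehicle its log2 fold change was -1.27 against control 1 alone and -0.48 against control 2 alone. Chrna4, a subunit of the main neuronal nicotinic receptor, passed as lower in SCI + Atorvastatin (log2 fold change -0.99, adjusted p = 0.00289) and not in SCI + Vehicle (-0.68, adjusted p = 0.118). The list medians, 0.65 and 0.18, were the same with lower bounds for the 4 genes.

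**Figure D5:**
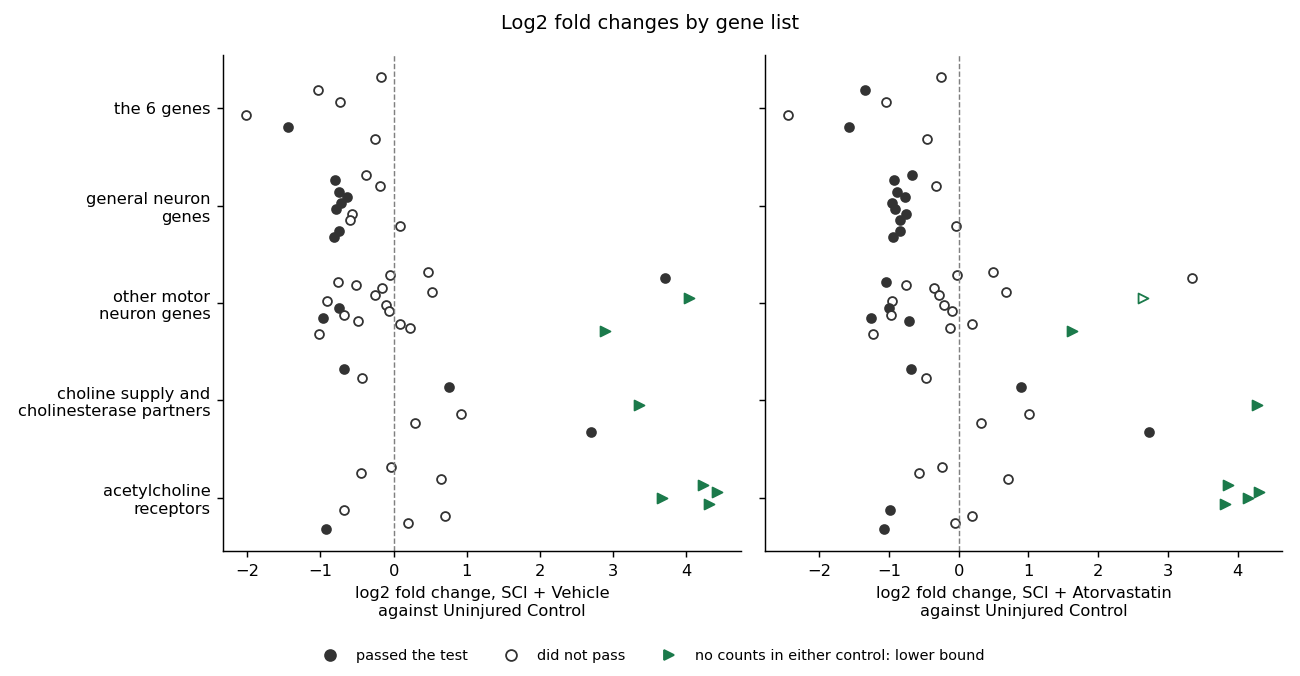
Log2 fold changes (horizontal axes) in SCI + Vehicle (left) and SCI + Atorvastatin (right) against Uninjured Control for the 6 genes and 4 further lists; each symbol is 1 tested gene, filled where it passed the test, and triangles give lower bounds for genes with no counts in either control. General neuron genes lie mostly between -1 and 0, and the 4 receptor genes that passed as higher are all triangles.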

How the data were processed

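The authors trimmed reads with Trimmomatic 0.38, checked them with FastQC 0.12.1, aligned them with STAR 2.5.4b to mm10 and quantified them with RSEM 1.3.1, per the submitters' processing notes. The libraries were made with a stranded total RNA kit. The authors deposited whole-number counts, without normalization, and TPM, normalized for gene length, and how the whole-number counts were derived is not given in the sources used here. Groups came from the sample labels, which call the mice biological replicates, and no 2 libraries of the same group were duplicates.

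Each comparison was fitted on its 2 groups by the quasi-likelihood test of edgeR 4.0.16 after TMM normalization (R 4.3.3), over genes whose condition mean exceeded 1 TPM in any of the 3 conditions. DESeq2 1.42.0, limma 3.58.1 with log2(TPM + 1), log2(TPM + 0.1) and voom, other normalizations, filters and thresholds, a replicate block and each mouse left out were alternatives, and the methods were tested on simulated data. Intervals are 95%, and permutations numbered 100000. The 6 genes and all lists were chosen with earlier results of these data known. From each list, up to 5 genes that passed against the controls, by smallest p in SCI + Vehicle, and the 3 of highest mean TPM could be named, and for each member the 3 genes of highest r among those with at least 1 CPM; Chodl, Ret, Stk32a and Lhx3 lie outside this rule and were named after their values were seen. Figures were drawn with matplotlib 3.10.9. Some list genes and their results are not reported here.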

Additional observations from a re-analysis of the deposited data

Results flagged for a closer look

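Isl1 in SCI + Vehicle replicate 3, at 3.49 CPM, was far from the other 6 mice of its group, whose median with it was 1.09 CPM. Its distance to the next mouse was 0.656 of the whole range of the group, above Dixon's 95% limit for 7 samples. The check was run on 12 sets (6 genes in 2 groups), and chance marks about 1 in 20. The same mouse had the highest sum of dorsal root ganglion markers, 57.9 CPM, and its part in the value was not tested.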

How the results depend on the processing

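Slc18a3 kept its direction under every alternative run, and passed against the controls in both SCI groups except with voom, with the replicate block and with replicates 1 and 2 alone. Chat passed in SCI + Vehicle too with DESeq2, with all 3 groups in 1 fit or with at least 10 counts in every mouse, which gave 2 members each in place of 1. Voom, the replicate block and replicates 1 and 2 without the block (added after seeing the data) gave 0 members in both comparisons. Leaving out a control gave 2 to 4 members in SCI + Vehicle and 3 to 5 in SCI + Atorvastatin, and leaving out an SCI mouse gave 1 and 2 as before. The counts without a control take in both directions. Mnx1 was counted as higher in both SCI groups against control 1 alone, where it had 0 counts (log2 fold changes 8.19 and 7.79). Ache was counted as higher in SCI + Atorvastatin against control 2 alone (0.75). The other members counted were lower. A larger count without a control is thus not firmer evidence of a fall. Between the treatments an unadjusted p below 0.05 without a fold limit gave 1 member (Chat).

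Directions turned for the other genes. In SCI + Vehicle against the controls, limma on log2(TPM + 1) gave 0.11 for Slc5a7 and 0.29 for Ache, and log2(TPM + 0.1) gave 0.12, 0.29, 0.32 for Isl1 and 0.51 for Mnx1. Voom gave 1.16 for Isl1 and 1.17 for Mnx1, and the replicate block gave 0.013 for Slc5a7, 1.299 for Isl1 and 1.93 for Mnx1. In SCI + Atorvastatin, TPM gave 0.26 and 0.27 for Ache with the 2 pseudocounts and 0.067 for Mnx1 with the smaller one, voom gave 0.88 for Isl1 and 0.80 for Mnx1, and the replicate block gave 2.55 for Isl1 and 0.52 for Mnx1. The block gave 0.20 for Isl1 between the treatments. Leaving out a control gave, in SCI + Vehicle, -0.75 to 0.52 for Slc5a7, -0.76 to 0.83 for Ache, -1.73 to 7.62 for Isl1 and -3.01 to 8.19 for Mnx1. In SCI + Atorvastatin it gave -0.96 to 0.31, -0.85 to 0.75, -2.04 to 7.35 and -3.44 to 7.79, where the upper values of Isl1 and Mnx1 rest on a lone control at 0 and are no bounds. Between the treatments, leaving out a mouse gave -0.54 to 0.28 for Isl1 (positive without SCI + Vehicle replicate 3) and -0.19 to 0.0079 for Ache (positive without SCI + Vehicle replicate 7). The cause was not tested.

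Over all genes, 4726 passed in SCI + Vehicle against the controls, and 133 with voom, 2398 with a TPM above 1 in every condition, 2867 with at least 10 counts, 83 with the block, 0 without it on replicates 1 and 2, and 7673 to 7806 without a control. In SCI + Atorvastatin 6259 passed, and 146, 3710, 4063, 42, 0 and 9706 to 9826 in the same order. Between the treatments 17 passed, and 1132 with an unadjusted p below 0.05, 0 with an adjusted p below 0.05, 37 with DESeq2, 8 with voom, 1 with all 3 groups in 1 fit, 8 with the block and 5 to 32 without a mouse. Genes higher in SCI made up 67.5% and 64.0% of those that passed, 84.5% and 80.4% with log2(TPM + 1), 12.8% and 12.3% with voom, and 46.5% and 46.2% with at least 10 counts, and log2(TPM + 1) moved the median of all genes from 0.17 and 0.21 to 0.49 and 0.52.

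Replicate numbers are shared by the groups, but same-numbered SCI mice correlated at only -0.192 to 0.111 and 0 of 7 mice matched their own number best, so the numbers were not taken as pairs. Depth limits Isl1 and Mnx1 most, with at most 81 and 73 counts in any SCI mouse.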

Other observations

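Markers of other cells in the piece of cord also differed from the controls, in comparisons where 19.8% (SCI + Vehicle) and 24.9% (SCI + Atorvastatin) of all tested genes passed as higher and 9.55% and 14% as lower. Of 5 macrophage markers, 3 passed as higher in SCI + Vehicle and 4 in SCI + Atorvastatin; Ctss, a lysosomal protease, rose by 3.41 and 3.60 on the log2 scale. Of 5 astrocyte markers, 3 passed as higher in each; Gfap, the intermediate filament of reactive astrocytes, rose by 1.75 and 1.85, while the glutamate transporter Slc1a2 gave -0.20 and -0.21 and did not pass. Of 5 oligodendrocyte markers, 1 and 2 passed as lower, with Mog, a myelin surface protein, falling by 0.49 and 0.43. Of 4 Schwann cell markers none passed in SCI + Vehicle (edgeR, median log2 fold change -1.08). In SCI + Atorvastatin (median -0.38) 1 passed as lower, Prx, a myelin gene of peripheral nerve. The log2 fold change of Prx there was -0.83 with both controls and -0.48 against control 2 alone. The 4 Schwann cell markers summed to 70.7 to 266 CPM in SCI + Vehicle, 189 to 315 CPM in SCI + Atorvastatin, and 381 and 249.5 CPM in the controls.

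All 5 liver markers passed as lower in each SCI group. Of the muscle markers 6 were tested and 1 (Actn3) passed as higher in each comparison, and of the ganglion markers 3 were tested, with Avil and P2rx3 higher in SCI + Vehicle and Avil in SCI + Atorvastatin. Of 6 red blood cell markers, 1 and 2 passed as higher, and the 4 globin genes had 0 counts in all 16 mice beside mean levels of 54.2 to 718 TPM, so their counts do not measure them. None of these marker lists held a gene that passed between the treatments.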
